A study of Mus musculus with 18 samples.

Results

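The 10 genes described here, Cyr61, Ctgf, Ankrd1, Axl, Ajuba, Amotl1, Amotl2, Lats2, Tead1 and Yap1, belong to the YAP and TEAD programme. They are 10 of 10110 genes found in at least 1 of 3 deposited tables that compare 2 immortalized lines of mouse embryonic fibroblasts. They were chosen by name, with the knowledge that several had low values in the wild-type line after 120 min of peroxide, so their levels are a description and carry no test. The wild-type line is called WT. The second line was eIF2aS51A (S51A below), in which the serine of eIF2α that stress kinases phosphorylate is replaced by alanine. Cells of each line were left untreated (0 min) or given hydrogen peroxide at 500 µM, an oxidant, for 15 or 120 min, and all were kept in DMEM with fetal bovine serum and antibiotics. By the labels there were 3 samples in each of 6 groups (18 samples), whereas the design text speaks of duplicates. Each genotype is a single line, so genotype and line cannot be told apart.

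Polyadenylated RNA was sequenced. The tables give 1 value per group and gene, as log2 of FPKM (a fragment count per unit of transcript length and of mapped fragments), so neither the spread between samples nor the depth is known and no standard deviation can be given. Only genes called different between the lines by the authors (q-value of at most 0.05) are in the table for that time. A listed gene therefore had to differ between the lines, and a gene missing from a table has no level here. Nothing says that the samples of a group came from separate cultures, so the q-values may measure technical spread. Of 10 fibroblast markers, 9 were listed at 0 min, 6 higher in S51A and 3 lower, where 49.6% of all listed genes were higher. The collagen gene Col1a1 was at 240.5 FPKM in WT against 1160.1 FPKM in S51A, whereas Vim (1871.5 against 1074.9 FPKM), Thy1 (23.6 against 10.6 FPKM) and Dcn (54.2 against 8.88 FPKM) were lower in S51A. None of 6 epithelial and 4 endothelial markers was listed at any time, which gives no level for them. Of 4 blood cell markers, Cd68 was listed at 0 min, at 1.97 FPKM in WT against 1.11 FPKM in S51A, and Csf1r at 120 min, at 0.758 against 0.165 FPKM.

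YAP is a transcriptional coactivator that binds DNA through TEAD factors. The Hippo kinase cascade, which ends in the LATS kinases, phosphorylates YAP and keeps it out of the nucleus when cells are dense, rounded or without serum lipids. Fibroblasts spread on plastic in serum usually keep YAP nuclear, and genes such as Cyr61, Ctgf and Ankrd1 are its usual readouts. Several targets feed back on the pathway, since LATS2 and the angiomotin-like proteins restrain YAP.

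TEAD factors bind the element GGAATG, read on either strand (GGAATG or CATTCC). It was searched in the RefSeq windows of build GRCm38.p6, the same assembly as the mm10 used for the tables, from 250 bases before to 50 bases after each start site. Windows were found for 8 of the 10 genes at the start site of the deposited tables, and Ctgf and Tead1 had no entry. The element was in 7 of these 8 windows, with 2 copies in Ankrd1 and in Ajuba. It was in 14.7% of all 32851 windows. The genes were picked as known YAP and TEAD targets, so this share is a description of the choice. The 250 bases upstream of the start are printed for Cyr61, Ajuba and Amotl2, which had low values in WT at 120 min, and for Ankrd1, which differed most between the untreated lines, with the element in capitals. All are written 5′ to 3′ on the gene's strand.
Cyr61, chr3:145649986-145650235, minus strand: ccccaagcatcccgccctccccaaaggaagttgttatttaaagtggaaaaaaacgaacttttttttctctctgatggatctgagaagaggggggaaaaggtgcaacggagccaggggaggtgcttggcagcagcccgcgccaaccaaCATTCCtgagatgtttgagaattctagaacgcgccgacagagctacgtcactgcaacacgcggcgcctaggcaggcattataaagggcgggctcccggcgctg
Ajuba, chr14:54577662-54577911, minus strand: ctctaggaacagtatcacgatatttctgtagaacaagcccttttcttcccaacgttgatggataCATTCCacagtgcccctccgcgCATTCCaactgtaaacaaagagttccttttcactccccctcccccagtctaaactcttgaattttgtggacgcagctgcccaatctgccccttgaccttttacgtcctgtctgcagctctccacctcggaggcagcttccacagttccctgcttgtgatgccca
Amotl2, chr9:102717554-102717803, plus strand: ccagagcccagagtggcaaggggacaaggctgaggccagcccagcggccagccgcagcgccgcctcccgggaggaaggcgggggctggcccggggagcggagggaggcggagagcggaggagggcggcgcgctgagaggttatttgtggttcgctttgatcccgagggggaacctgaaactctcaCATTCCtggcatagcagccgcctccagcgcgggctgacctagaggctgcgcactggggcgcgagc
Ankrd1, chr19:36119845-36120094, minus strand: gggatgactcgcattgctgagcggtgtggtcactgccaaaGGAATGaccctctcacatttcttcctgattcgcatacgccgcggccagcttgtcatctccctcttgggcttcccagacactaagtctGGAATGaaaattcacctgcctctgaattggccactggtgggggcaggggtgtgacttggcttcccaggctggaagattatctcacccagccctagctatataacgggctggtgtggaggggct

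The element began 103 bases before the start site in Cyr61 and 65 bases before it in Amotl2. In Ajuba the copies began 186 and 164 bases before the start, and in Ankrd1 they began 210 and 123 bases before it. The other elements are shown with 10 bases on each side.
Axl, 233 bases before the start, chr7:25788951-25788976, minus strand: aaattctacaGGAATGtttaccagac
Yap1, 141 bases before the start, chr9:8004722-8004747, minus strand: ggagtctgcaGGAATGtagcgacgcg
Lats2, from base 5 of the transcript, chr14:57746104-57746129, minus strand: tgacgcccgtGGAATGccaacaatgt
The Amotl1 window held no copy. None of the 8 windows held the AP-1 element TGANTCA or the CArG box of serum response factor, which were in 7.81% and 1.63% of all windows on either strand. This says only that those letters are not in these windows.

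The secreted CCN proteins gave the widest separation of the lines among these genes, at 120 min. Cyr61 (chromosome 3, 145646971 to 145649985, mm10), which encodes the matricellular protein CCN1, was at 206.5 FPKM at 0 min, 202.3 FPKM at 15 min and 27.5 FPKM at 120 min in WT. In S51A it was at 263.2, 160.9 and 337.8 FPKM. The level was thus of like size in both lines until 15 min and was low in WT alone at 120 min, where it was 7.52-fold below the untreated WT value and 12.3-fold below S51A. At 15 min it was the S51A line that stood lower than before treatment, by 1.64-fold. The authors' deposited table called Cyr61 different between the lines at every time, higher in S51A at 0 min (log2 ratio 0.35, q = 0.0036), lower at 15 min (-0.33, q = 0.000293) and higher at 120 min (3.62, q = 0.000198).

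Ctgf (chromosome 10, 24595442 to 24598682), which encodes CCN2, a promoter of matrix deposition, followed a like course at lower levels. In WT it was at 79.9, 74.0 and 19.0 FPKM at 0, 15 and 120 min, a 4.20-fold lower value at the end than at the start. In S51A it was at 58.9, 49.5 and 62.7 FPKM. WT was the higher line at 0 and 15 min and the lower line at 120 min, when S51A stood 3.29-fold above it. The authors' deposited table gave log2 ratios of -0.43 (q = 0.000543), -0.58 (q = 0.000102) and 1.71 (q = 0.000198) in that order.

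Ajuba and Amotl2, whose products act inside the cell on the Hippo cascade, had low values at 120 min in both lines. Ajuba (chromosome 14, 54567469 to 54577661), a LIM protein that binds and inhibits LATS kinases, was at 21.9, 21.7 and 4.63 FPKM in WT at 0, 15 and 120 min. It was at 33.6, 33.6 and 8.51 FPKM in S51A. The value at 120 min was 4.72-fold below the untreated one in WT and 3.94-fold below it in S51A, with S51A the higher line throughout. Amotl2 (chromosome 9, 102717804 to 102733417), an angiomotin-like scaffold that holds YAP outside the nucleus, was at 89.9, 106.9 and 22.6 FPKM in WT against 121.9, 125.4 and 32.9 FPKM in S51A. These are 3.97-fold and 3.71-fold lower values at 120 min than at 0 min. The authors' deposited table called both genes higher in S51A at each time, Ajuba with log2 ratios of 0.62, 0.62 and 0.87 and Amotl2 with 0.45, 0.23 and 0.54.

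Amotl1 and Lats2, whose products restrain YAP, were listed at fewer times. Amotl1 (chromosome 9, 14541967 to 14615000), the paralog of Amotl2, was at 21.0 FPKM in WT against 13.7 FPKM in S51A at 15 min, and at 17.8 and 9.0005 FPKM at 120 min. Amotl1 was thus higher in WT, whereas Amotl2 was higher in S51A, and the authors' deposited table gave log2 ratios of -0.61 and -0.97 with q = 0.000102 and q = 0.000198. Lats2 (chromosome 14, 57689662 to 57746123), the kinase that phosphorylates YAP, was listed only at 120 min, at 7.57 FPKM in WT against 14.1 FPKM in S51A (log2 ratio 0.89, q = 0.0044 in the authors' deposited table).

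Ankrd1 and Axl were higher in WT at each time they were listed. Ankrd1 (chromosome 19, 36111965 to 36119844), a nuclear ankyrin repeat protein also found in muscle sarcomeres, was at 179.8 FPKM at 0 min and 171.3 FPKM at 15 min in WT, against 53.4 and 51.98 FPKM in S51A. These are 3.36-fold and 3.29-fold higher values in WT. It was not listed at 120 min and has no level there. Axl (chromosome 7, 25756500 to 25788733), the receptor tyrosine kinase for GAS6, was at 138.1, 145.0 and 127.1 FPKM in WT against 71.5, 68.1 and 62.2 FPKM in S51A. Its level in each line moved little with time, and WT exceeded S51A by 1.93-fold, 2.13-fold and 2.04-fold.

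The coactivator gene Yap1 and Tead1, a gene for a DNA-binding partner, were also lower in S51A at each time. The related genes Wwtr1 and Tead2, given below, were higher in S51A at the times they were listed. Yap1 (chromosome 9, 7932001 to 8004596) was at 77.2, 82.1 and 63.6 FPKM in WT against 55.3, 54.9 and 39.9 FPKM in S51A. The value at 120 min was 1.21-fold below the untreated one in WT and 1.39-fold below it in S51A. Tead1 (chromosome 7, 112679320 to 112906805) was at 26.2, 36.0 and 29.9 FPKM in WT against 21.3, 16.8 and 10.3 FPKM in S51A. Here S51A stood lower at each later time, 2.06-fold below its untreated value at 120 min, whereas WT was higher at 15 min than at 0 min. The authors' deposited table gave Tead1 log2 ratios of -0.29 (q = 0.0246), -1.09 (q = 0.000102) and -1.53 (q = 0.000198).

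**Figure D1:**
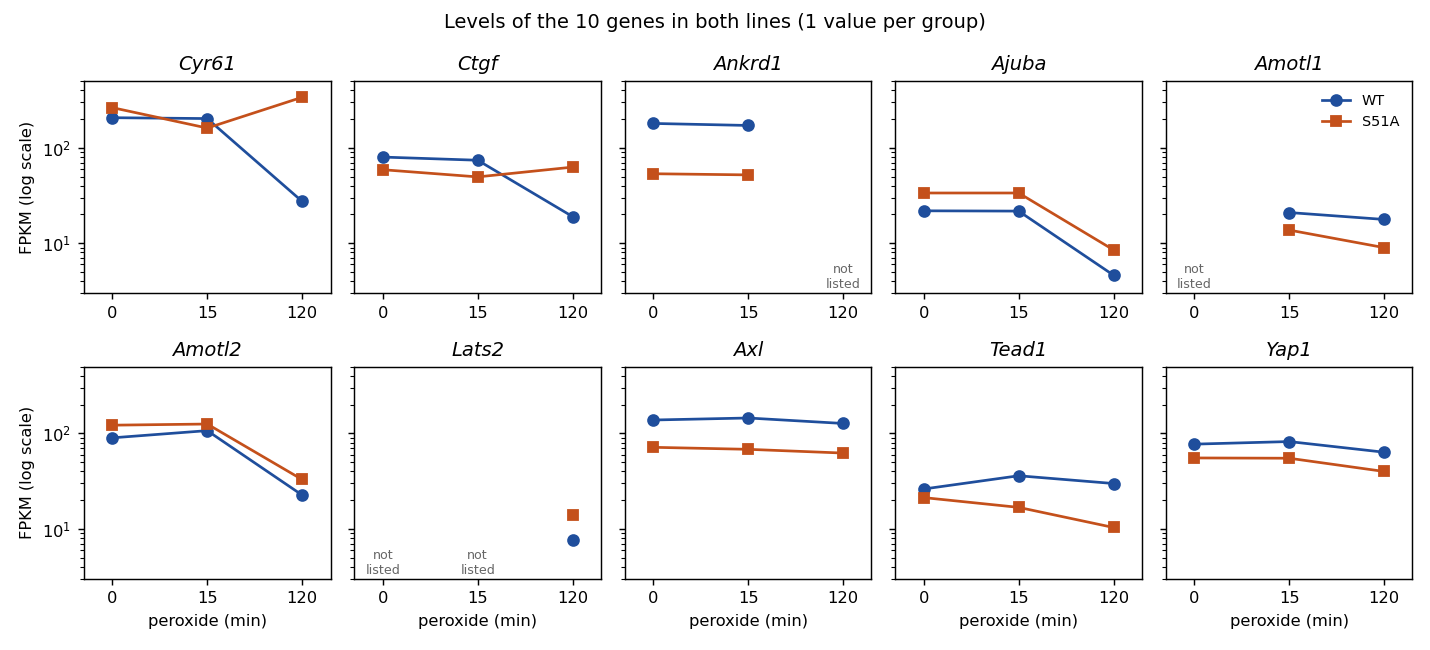
FPKM on a log axis against minutes of peroxide for each of the 10 genes, with circles for WT and squares for S51A and 1 authors' group value per point, so no error bars can be drawn. Cyr61 and Ctgf are low in WT alone at 120 min, Ajuba and Amotl2 are low in both lines, and gaps mark times at which a gene was not listed.

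Between the lines, 8 of the 10 genes were listed at 0 min, 3 higher and 5 lower in S51A, where 49.6% of all 7549 listed genes were higher and 50.4% lower. At 15 min 9 were listed, 2 higher and 7 lower, against 49.9% higher and 50.1% lower of 8289 listed genes. At 120 min 9 were listed, 5 higher and 4 lower, against 50.9% and 49.1% of 6105 genes. The median log2 ratio of the listed members was -0.36, -0.58 and 0.54 at 0, 15 and 120 min. That of all listed genes was -0.27, -0.20 and 0.42. Ratios near 0 are missing because only called genes are listed, so a median can cross 0 with little change in the shares. Over the 4272 genes compared at both 0 and 120 min, the median change of the ratio was -0.05. At least 2-fold higher in S51A were 0 of the 8 listed members at 0 min (22.1% of all listed genes) and 0 of 9 at 15 min (20.2%). At 120 min 2 of 9 were, Cyr61 and Ctgf (26.5%). At least 2-fold lower were 1 of 8 at 0 min, Ankrd1 (15%), 3 of 9 at 15 min, Ankrd1, Axl and Tead1 (12.3%), and 2 of 9 at 120 min, Axl and Tead1 (20.9%). Genes listed at one time only enter at that time, so these counts do not cover the same genes.

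Order of level also differed. In untreated WT cells Cyr61 was the highest of the 8 listed genes, followed by Ankrd1, Axl, Amotl2, Ctgf, Yap1, Tead1 and Ajuba. In untreated S51A cells the order was Cyr61, Amotl2, Axl, Ctgf, Yap1, Ankrd1, Ajuba and Tead1. At 120 min the listed set was another, without Ankrd1 and with Amotl1 and Lats2. Among the 9 genes listed then, Axl led in WT, ahead of Yap1, Tead1 and Cyr61, whereas Cyr61 led in S51A, ahead of Ctgf and Axl. Ankrd1, at 179.8 FPKM in untreated WT, has no level at 120 min, so its place there is not known. With 1 value per group, it cannot be said which neighbours in these orders differ.

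For the time courses, 1 was added to each FPKM, and the log2 value at 120 min was set against that at 0 min in each line. The median over the 4328 genes present in both tables was then subtracted. Normalization may have differed between the tables, and the added 1 understates changes of low genes. In WT, 4 of the 7 genes in both tables (Cyr61, Ctgf, Ajuba and Amotl2) were at least 2-fold lower and none was 2-fold higher, where 1.64% of all genes in both tables were at least 2-fold lower and 0.624% higher. Their centred changes were -2.77, -1.92, -1.92 and -1.85, at places 1, 8, 7 and 10 from the lowest of the 4328. This low WT level was part of the reason the genes were chosen, so nothing is read from the count. Of the 3 others, Axl was at -0.02, Yap1 at -0.18 and Tead1 at 0.28, the last at place 399 from the highest.

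In S51A, 2 of the same 7 genes (Ajuba at -1.68 and Amotl2 at -1.68) were at least 2-fold lower and none was 2-fold higher, where 6.22% of genes were lower and 11.5% higher by that margin. Cyr61 was at 0.54, Ctgf at 0.27, Axl at -0.02, Yap1 at -0.28 and Tead1 at -0.80. At 15 min none of the 8 genes in both tables was past 2-fold in either line. Of 6369 genes, 0.0628% were lower and 0% higher by that margin in WT, and 0.0314% lower and 0.0471% higher in S51A. The lowest of them was Cyr61 in S51A, at -0.73, the place 5 from the lowest of 6369, and the highest was Tead1 in WT, at 0.44.

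**Figure D2:**
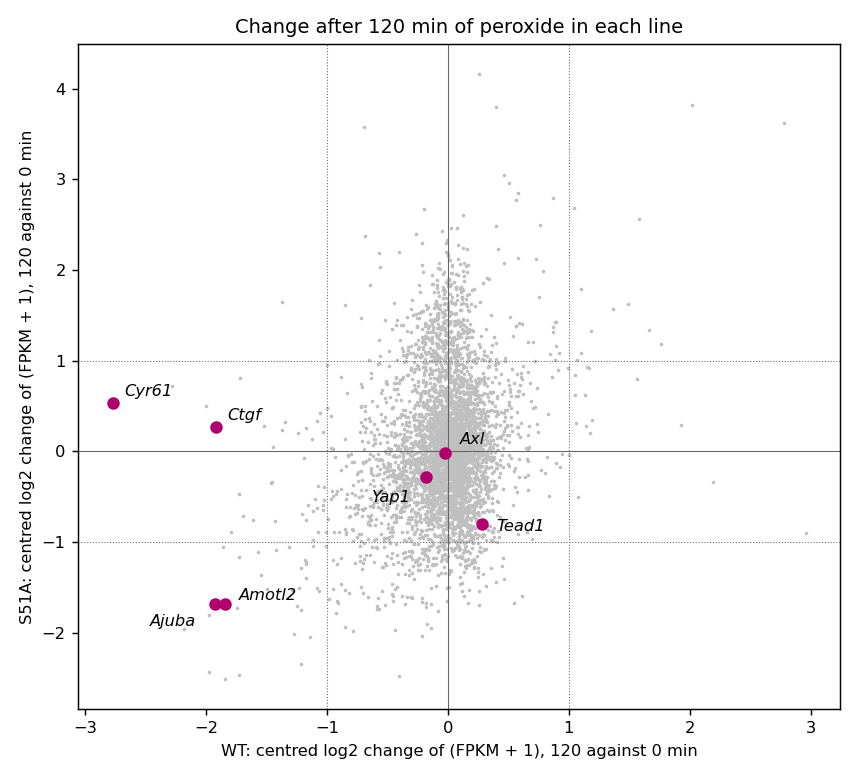
Centred log2 change of FPKM plus 1 from 0 to 120 min in WT (x axis) and S51A (y axis). Grey points are the other genes listed in both tables, labelled points are the 7 genes described here that both tables list, and dotted lines mark 2-fold. Cyr61 and Ctgf lie far to the left and above 0, Ajuba and Amotl2 far to the left and below.

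The difference between the lines within a table does not depend on scaling between tables other than by a shift shared by all genes. From 0 to 120 min the S51A minus WT log2 ratio moved by 3.27 for Cyr61 and 2.14 for Ctgf, places 5 and 37 from the highest of 4272 genes with a median of -0.05. It moved by 0.25 for Ajuba, 0.09 for Amotl2, -0.08 for Axl, -0.17 for Yap1 and -1.24 for Tead1. No test of these moves could be made.

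Transcript length moved with this ratio. Across 4262 genes with a GENCODE transcript, the change of the ratio had a Pearson r of -0.61 with log2 of the longest transcript's length, as a description over genes that share all libraries. The genes were divided into 4 length classes of like size. In the shortest class (up to 2294 nt), which holds Cyr61 at 2019 nt, the median change was 0.65 and the highest decile began at 1.62. In the class from 2295 to 3500 nt, which holds Ctgf and Ajuba, the median was 0.04 and the highest decile began at 0.946. In the longest class, which holds Tead1 and Yap1, the median was -0.70 and the lowest decile ended at -1.57. The values of Cyr61 and Ctgf were above the highest decile of their classes and that of Tead1 was within the deciles of its own. The change of ratio contains the WT level at 120 min that helped to choose the genes, so these places are a description and support nothing.

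The trend with length was in S51A. The median centred change from 0 to 120 min was 0.66, 0.07, -0.11 and -0.49 from the shortest to the longest class in S51A. It was -0.01, -0.0007, -0.02 and 0.04 in WT. In S51A the value of Cyr61 (0.54) was near the median of its class and that of Tead1 (-0.80) was within its deciles (-1.15 to 0.11). In WT the lowest deciles ended between -0.355 and -0.472. The WT values of Cyr61, Ctgf, Ajuba and Amotl2 given above helped to choose these genes, so nothing is read from their place against these deciles. What length contributes to the values of either line was not tested.

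**Figure D3:**
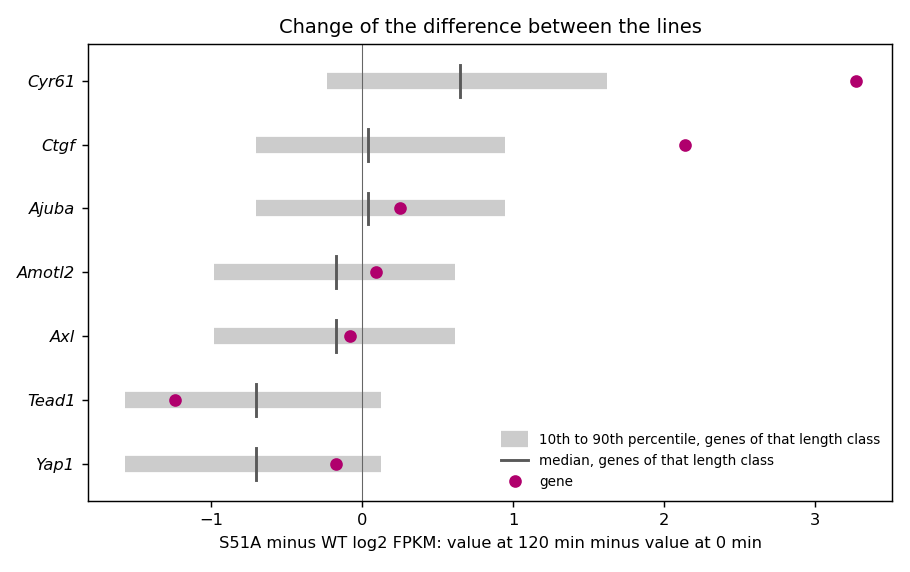
Change from 0 to 120 min of the S51A minus WT difference in log2 FPKM for the 7 genes in both tables (points), with the median (dark bar) and the 10th to 90th percentile range (grey band) of listed genes in the same transcript length class. Cyr61 at 3.27 and Ctgf at 2.14 lie to the right of their bands and the 5 other genes lie inside theirs, as a description, since the WT level at 120 min helped to choose the genes.

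The genes with the most similar course over the 6 group values were found by Euclidean distance of mean-centred log2 values among 3283 genes listed in all tables with at least 5 FPKM in a group. For Cyr61 the nearest was Ctgf (distance 1.49), then Fgf7 (1.56), Lurap1l, Mogs and Chst12. The WT level at 120 min, which helped to choose Cyr61 and Ctgf, is among the 6 values, so nothing is read from their nearness. Fgf7, a growth factor for epithelium, was at 29.9 FPKM at 0 min and 11.8 FPKM at 120 min in WT, against 67.2 and 71.0 FPKM in S51A. For Ctgf the nearest were the cyclin gene Ccne2 (0.64), the early response factor gene Klf6 (0.75), Lrfn4, Zfp36l1 and Hilpda. Klf6 was at 55.3 and 25.3 FPKM in WT against 45.9 and 56.9 FPKM in S51A at 0 and 120 min. For Axl, whose lines ran in parallel, they were Mre11a (0.05), Setd8, Cyfip1, Ing5 and Cdca7l. The distance grows with the size of a course, so distances of different genes are not compared.

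The wider pathway was read from fixed lists. Of 16 other genes of a published YAP and TAZ target signature, 9 were listed at 0 min (7 higher in S51A, 2 lower), 15 at 15 min (8 and 7) and 11 at 120 min (5 and 6). Of all listed genes 49.6%, 49.9% and 50.9% were higher in S51A at those times. The signature genes had a median log2 ratio of 1.05, 0.24 and -0.62, and all listed genes had -0.27, -0.20 and 0.42. Only called genes are listed, so ratios near 0 are missing, and the genes listed differed between times. A median can thus cross 0 with little change in the shares, so no shift is read from these medians. F3, tissue factor, resembled Cyr61 and Ctgf in that only WT was lower at 120 min than at 0 min. It was at 12.0 FPKM at 0 min and 4.14 FPKM at 120 min in WT against 37.5 and 38.3 FPKM in S51A. F3 thus differed between the lines before treatment (log2 ratio 1.66), more than Cyr61 (0.35) and Ctgf (-0.43). Foxf2, a forkhead factor, was low in both lines at 120 min, from 18.3 to 7.52 FPKM in WT and from 9.13 to 2.16 FPKM in S51A. Myof and Asap1 were lower in S51A at 120 min, Myof at 58.1 FPKM in WT against 26.4 FPKM in S51A and Asap1 at 31.8 and 14.6 FPKM. In WT 2 of the 7 signature genes in both tables were at least 2-fold lower at 120 min, against 1.64% of all genes in both tables, and in S51A 3 were, against 6.22%.

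Of the 4 other CCN genes, the 3 that were listed were higher in S51A at each time. The shares of all listed genes higher in S51A were 49.6%, 49.9% and 50.9% at 0, 15 and 120 min. Wisp2 (CCN5) was at 2.89 FPKM in WT against 82.7 FPKM in S51A at 0 min and at 2.50 and 88.6 FPKM at 120 min. Wisp1 (CCN4) was at 25.6 and 54.2 FPKM at 0 min and at 11.4 and 25.3 FPKM at 120 min, lower in both lines than before. Nov (CCN3) was at 4.11 FPKM in WT against 7.06 FPKM in S51A at 120 min.

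The Hippo cascade and its upstream regulators, 25 genes, had 15 listed at 0 min, 12 higher in S51A and 3 lower. At 15 min 20 were listed (9 and 11) and at 120 min 17 (5 and 12), with medians of 0.91, -0.31 and -0.52. Of all listed genes 49.6%, 49.9% and 50.9% were higher in S51A at those times. Different cascade genes were listed at each time, so these counts and medians are not a course over time. At 120 min the scaffold gene Strn was at 12.0 FPKM in WT against 3.53 FPKM in S51A, and Taok1, a kinase upstream of the cascade, at 16.2 and 6.87 FPKM. Wwc1 (KIBRA), an activator of LATS, was at 22.0 FPKM in WT against 8 FPKM in S51A. The kinase gene Map4k2 was the other way, at 2.14 and 7.46 FPKM. Of the 9 cascade genes in both tables, 0 were past 2-fold in WT from 0 to 120 min, where 1.64% of all genes were lower and 0.624% higher by that margin, so nothing is read from the count. In S51A 2 were lower past 2-fold, where 6.22% of all genes were. Transcript length, which moved with the S51A values, was not matched in these lists.

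Among 11 coactivator, TEAD and partner genes, 6 were listed at 0 min (4 higher, 2 lower), 7 at 15 min (4 and 3) and 6 at 120 min (2 and 4). The shares of all listed genes higher in S51A were 49.6%, 49.9% and 50.9%, and the partner genes listed differed between times. Tead3 was at 13.8 FPKM in WT against 7.26 FPKM in S51A at 120 min, on the same side as Tead1. Tead4 was also lower in S51A then, at 2.08 and 1.10 FPKM, whereas Tead2 was higher, at 59.7 and 85.0 FPKM. Wwtr1, the gene of the related coactivator TAZ, was at 29.9 FPKM in WT against 44.9 FPKM in S51A at 0 min. It was not listed at 120 min. Limd1, a LIM protein related to Ajuba, was lower in S51A at 120 min, at 23.3 and 14.6 FPKM, and Wtip, of the same family, was higher, at 7.89 and 14.4 FPKM. Vgll4, which competes with YAP for TEAD, was at 10.3 FPKM in WT against 16.2 FPKM in S51A at 0 min and at 6.11 and 3.56 FPKM at 120 min.

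Serum response factor and its MRTF cofactors share several targets with YAP, Cyr61 and Ctgf among them. A list of 16 genes held cytoskeletal targets of these factors together with Srf, Mkl1 and Mkl2, the genes of the factor and its cofactors. Of the 16, 10 were listed at 0 min (9 higher in S51A, 1 lower), with Mkl1 and Mkl2 among the higher. At 15 min 11 were listed (8 and 3) and at 120 min 9 (6 and 3). The shares of all listed genes higher in S51A were 49.6%, 49.9% and 50.9%. The medians of this list were 0.58, 0.44 and 0.83, over sets that differed between times. Of the 7 in both tables, 0 were past 2-fold in WT between 0 and 120 min, which is near the share over all genes (1.64% lower and 0.624% higher). In S51A 1 was lower and 1 higher past 2-fold between 0 and 120 min, where 6.22% and 11.5% of all genes were. Acta2, smooth muscle actin, was at 23.6 and 24.1 FPKM in WT against 110.7 and 163.1 FPKM in S51A at those times, and Tpm2, a tropomyosin, at 44.6 and 38.9 FPKM in WT against 64 and 130.7 FPKM in S51A. Cnn1, a calponin, was at 0.697 FPKM in WT against 15.8 FPKM in S51A at 120 min. Filip1l was lower in S51A at 120 min, at 46.2 FPKM in WT against 14.6 FPKM in S51A.

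**Figure D4:**
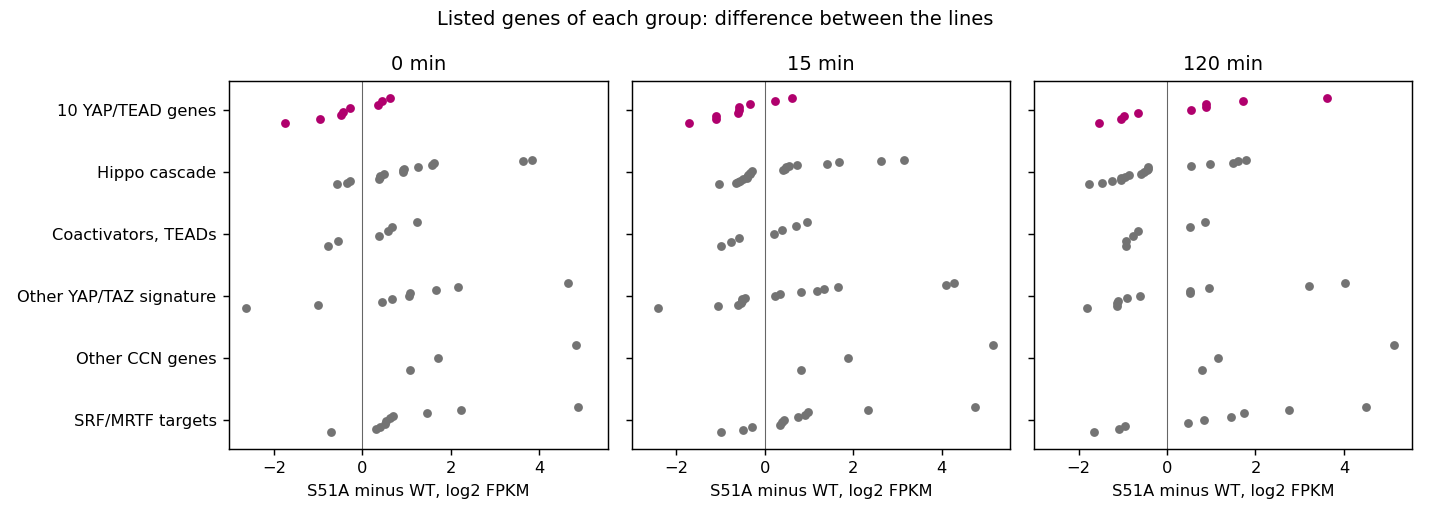
S51A minus WT difference in log2 FPKM of every listed gene of the 10 and of the 5 fixed lists at 0, 15 and 120 min, 1 point per gene, with genes not listed left out. At 120 min the points of the 10 genes run from -1.53 (Tead1) to 3.62 (Cyr61). The Hippo cascade has 12 of 15 points right of 0 at 0 min, 9 of 20 at 15 min and 5 of 17 at 120 min. Of all listed genes 49.6%, 49.9% and 50.9% are right of 0 at those times. Transcript length was not matched between the lists. The genes shown differ between times.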

How the data were processed

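Libraries were directional, poly(A)-selected and sequenced as single 75 nt reads, per the labels' protocols. STAR, Cufflinks and Cuffdiff with mm10 are named in the submitters' processing notes. The gene annotation is not given in the sources used. Per the file headers, the deposited tables give log2 FPKM per group, a log2 ratio and a q-value, and every entry is marked significant, so genes not called are not seen. The deposited log2 columns are rounded to 0.01, and the ratio is S51A minus WT. Depth is unknown.

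The members and lists were chosen with earlier results of these data known. Entries with 2 symbols, date-like or repeated symbols were left out (6, 19 and 14 entries). FPKM and folds were computed from the log2 values in Python 3.11.15 with pandas 2.3.3, and starts had 1 added. Time changes used a pseudocount of 1. The planned design held for these units, and no test across samples could be made. Scripts were tested on simulated data. The length comparison was added after seeing the data. Cyr61 was matched to RefSeq under Ccn1. Named genes were all 10 members and the 5 nearest genes to Cyr61, Ctgf and Axl (Ankrd1 was not in all tables). Up to 4 per pathway list were named, with the largest absolute log2 ratio at 120 min (5 FPKM or more in the higher group). Cell type markers, the lowest changes in WT, Wwtr1, Tead2, Tead4, Srf, Mkl1 and Mkl2 were named outside this rule. Alternatives were other pseudocounts, centrings, filters and thresholds.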

Additional observations from a re-analysis of the deposited data

How the results depend on the processing

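No paired analysis was possible because the tables hold 1 value per group, and for the same reason no replicate could be left out. With a minimum of 2-fold between the lines, 0 of the 8 members listed at 0 min were higher in S51A and 1 was lower. Of the 9 listed at 15 min, 0 were higher and 3 lower, and of the 9 at 120 min, 2 and 2. With q at most 0.001, 1 was higher at 15 min and 3 were higher at 120 min. With a threshold of 1.5-fold, 1 gene (Cyr61) was lower in S51A at 15 min than at 0 min. Without centring, Ajuba in S51A at 15 min was at 0, and with a pseudocount of 0.1, Axl in S51A at 120 min was at 0.014, in place of values just below 0. The counts of genes past 2-fold at 120 min in WT and in S51A stayed within 1.5 times under each pseudocount, centring and filter tried. Precision is limited by the missing replicate values and the unknown depth.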

Other observations

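The other 6 of the 10 lowest centred changes in WT from 0 to 120 min were named after their values were seen. They were picked for a low WT change, so only whether S51A was also lower was left free to differ. Their likeness to the genes above follows from this choice, and nothing is read from it. Adm, the vasodilator peptide adrenomedullin, was at 18.3 FPKM and then 2.69 FPKM in WT, against 2.97 and 4.79 FPKM in S51A. Dusp6, a phosphatase that switches off ERK, was at 33.8 and 7.16 FPKM in WT, against 9.45 and 12.0 FPKM in S51A. In both of these genes only the WT value was lower at 120 min, as for Cyr61 and Ctgf. Foxc1, a forkhead factor, was at 20.8 and 4.20 FPKM in WT and 54.6 and 8.11 FPKM in S51A. Pcdh18, a protocadherin, was at 26.9 and 5.66 FPKM in WT and 38.6 and 9.06 FPKM in S51A. Mesdc1 was at 17.5 and 2.81 FPKM in WT and 10.1 and 1.53 FPKM in S51A, and the nuclear receptor gene Nr2f2 was at 57.3 and 14.0 FPKM in WT and 18.6 and 7.36 FPKM in S51A. These 4 were lower at 120 min in both lines, as were Ajuba and Amotl2. No test of this division was made.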
